A study of Homo sapiens with 43 samples.

Results

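The genes described here encode the nuclear subunits of the oxidative phosphorylation complexes. They were chosen by symbol from a RefSeq table of the protein-coding genes of GRCh38 (hg38), the build of the peak lists, and no measured value entered the choice. Symbols starting NDUFA, NDUFB, NDUFC, NDUFS or NDUFV gave 38 genes of complex I, SDHA to SDHD gave 4 of complex II, UQCR gave 9 of complex III, COX4 to COX8 gave 17 of complex IV and ATP5 gave 20 of complex V, with NDUFAF assembly factors left out. In all, 88 of 20037 genes were taken. They include the readthrough genes ATP5MF-PTCD1 and NDUFC2-KCTD14, each of which shares a start with a subunit gene, and ATP5IF1, which encodes the inhibitor of the ATP synthase. The table lists NDUFA4 and NDUFA4L2 under their newer symbols COXFA4 and COXFA4L2, so these lie outside the rule.

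CDK-TCIP1 is a small molecule with one end that binds the kinase CDK9 and another that binds BCL6, a repressor of germinal-centre B cells. CDK9 was mapped by ChIP-seq in 2 lymphoma lines of B-cell origin, both labelled DLBCL. In SUDHL5, antibodies ab239364 and CST2316S were each used on 2 samples after 2 h of 30 nM CDK-TCIP1 and 2 after 2 h of DMSO, and in KARPAS422 CST2316S was used on the same numbers. In SUDHL5, RNA polymerase II phosphorylated at serine 5 (Ser5P) or serine 2 (Ser2P) was mapped in 2 samples each, and total polymerase (Pol II) in 3 samples each, after 2 h and 4 h of CDK-TCIP1 and after 4 h of DMSO. The solvent was 0.1% DMSO in treated and control cells alike. The 2 h and 4 h polymerase comparisons share the 4 h DMSO samples, so the 2 h groups differ from DMSO also in time.

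The subunit genes feed electrons from NADH and succinate through complexes I to IV to oxygen, and the proton gradient that this builds drives ATP synthase, complex V. They are housekeeping genes, transcribed in nearly every tissue, with some muscle, heart, lung or testis copies. Many of their promoters are known to be bound by NRF1, by GABP (an ETS factor) and by YY1. CDK9 phosphorylates paused polymerase and its pausing factors, Ser5P marks polymerase near gene starts, and Ser2P gathers along genes towards their ends.

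The sequences below are promoter windows of 300 bases, from 250 before to 50 after a tabulated start site (RefSeq, GRCh38.p14), written 5′ to 3′ on the strand of the gene. The 6 genes stand for the patterns described below: ATP5PF and NDUFA9 had CDK9 peaks in every treated CDK9 list, COX4I1 gained CDK9 with ab239364, ATP5PD gained Ser5P at both times, NDUFB1 led the Pol II peaks, and NDUFB10 lost CDK9 in KARPAS422. Capitals mark matches, on either strand, to the NRF1 core CATGCGC, the ETS and GABP core CCGGAAG, the YY1 motif AAGATGG and the TATA letters TATAAA. ATP5PF lies at chr21:25735005-25735304, minus strand; NDUFA9 at chr12:4648864-4649163, plus strand; COX4I1 at chr16:85799445-85799744, plus strand. ATP5PD lies at chr17:75046920-75047219, minus strand; NDUFB1 at chr14:92121657-92121956, minus strand; NDUFB10 at chr16:1959288-1959587, plus strand.
ATP5PF: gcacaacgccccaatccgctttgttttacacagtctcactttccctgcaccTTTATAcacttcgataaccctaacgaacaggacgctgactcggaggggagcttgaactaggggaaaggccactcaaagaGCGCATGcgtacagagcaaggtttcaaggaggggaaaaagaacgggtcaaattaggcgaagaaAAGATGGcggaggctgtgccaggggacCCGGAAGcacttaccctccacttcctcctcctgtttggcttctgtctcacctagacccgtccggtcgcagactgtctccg
NDUFA9: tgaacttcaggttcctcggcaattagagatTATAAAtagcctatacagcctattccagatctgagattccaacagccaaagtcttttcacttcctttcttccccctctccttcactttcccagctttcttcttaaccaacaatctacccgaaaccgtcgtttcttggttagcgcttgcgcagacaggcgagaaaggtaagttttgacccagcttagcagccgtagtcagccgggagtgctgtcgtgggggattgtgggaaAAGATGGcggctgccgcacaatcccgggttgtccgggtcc
COX4I1: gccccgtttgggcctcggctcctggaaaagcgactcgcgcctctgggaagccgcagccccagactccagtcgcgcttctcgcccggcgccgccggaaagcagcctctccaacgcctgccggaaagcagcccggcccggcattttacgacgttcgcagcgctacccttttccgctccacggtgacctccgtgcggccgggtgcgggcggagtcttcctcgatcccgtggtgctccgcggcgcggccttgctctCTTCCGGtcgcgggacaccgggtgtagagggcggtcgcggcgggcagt
ATP5PD: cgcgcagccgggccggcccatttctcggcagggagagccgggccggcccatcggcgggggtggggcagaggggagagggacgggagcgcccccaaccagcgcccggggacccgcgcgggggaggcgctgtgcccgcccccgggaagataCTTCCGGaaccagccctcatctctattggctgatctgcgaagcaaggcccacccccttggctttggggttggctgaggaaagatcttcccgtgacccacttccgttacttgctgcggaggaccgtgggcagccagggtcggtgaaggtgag
NDUFB1: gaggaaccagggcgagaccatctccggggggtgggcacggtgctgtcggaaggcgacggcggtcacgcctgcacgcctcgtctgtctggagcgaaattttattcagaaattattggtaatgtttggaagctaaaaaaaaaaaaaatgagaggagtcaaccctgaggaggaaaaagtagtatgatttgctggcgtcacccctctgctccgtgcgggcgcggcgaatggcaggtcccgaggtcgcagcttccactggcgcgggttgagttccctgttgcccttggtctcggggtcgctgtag
NDUFB10: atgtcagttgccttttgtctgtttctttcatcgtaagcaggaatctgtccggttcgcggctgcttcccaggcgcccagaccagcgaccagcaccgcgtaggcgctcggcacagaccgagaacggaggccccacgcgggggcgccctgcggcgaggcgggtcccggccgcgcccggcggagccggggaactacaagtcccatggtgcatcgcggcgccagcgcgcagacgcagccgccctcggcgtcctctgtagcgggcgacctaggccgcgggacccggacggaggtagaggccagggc

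The ATP5PF window held all 4 of these motifs, with the NRF1 core starting 120 bases, the YY1 motif 57 bases and the ETS core 30 bases before the start site. In NDUFA9 the YY1 motif began 10 bases after the start site, and in COX4I1 an ETS core began 2 bases after it. The ETS core of ATP5PD began 101 bases before the start. In NDUFB1 and NDUFB10 none of the 4 letter strings occurred, which says only that these letters are not in these windows.

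Promoter windows were in the table for 71 of the 88 subunit genes and for 15771 other genes. The NRF1 core was in 19.7% of the subunit promoters and in 5.81% of the others, the ETS core in 28.2% and 14.2%, and the YY1 motif in 22.5% and 6.33%. The other motifs searched stood at closer shares: SP1 (GGGCGG) in 60.6% and 58.5%, NF-Y (CCAAT) in 35.2% and 36.4%, TATA in 9.86% and 9.63%, and the STAT and BCL6 family letters TTCNNNGAA in 8.45% and 6.96%. Both strands were searched and matches of different motifs may overlap. A match is a description of letters, not a bound site. GC content was similar, with a median of 61.0% in the subunit promoters and 62.7% in the others.

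**Figure D1:**
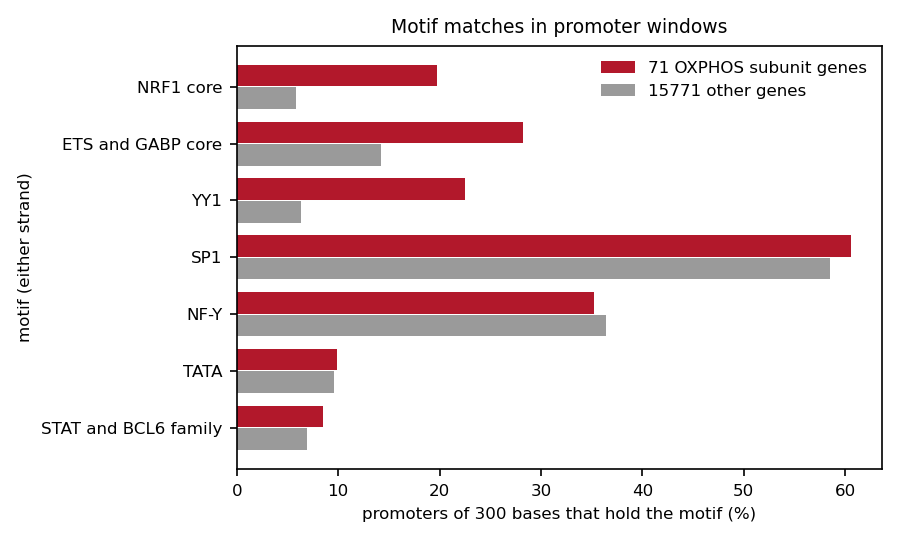
Share of promoter windows of 300 bases that hold each motif on either strand, for 71 oxidative phosphorylation subunit genes (red) and 15771 other protein-coding genes (grey). The NRF1 core, the ETS and GABP core and the YY1 motif stand at 19.7%, 28.2% and 22.5% of the subunit promoters, against 5.81%, 14.2% and 6.33% of the others.

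The subunit genes were also short and closely packed. Their median length was 9589 bp, against 24232 bp in the other genes, and 41 of them (46.6%) had an end of another protein-coding gene within 1 kb, against 28.4% of the other genes. A peak at such an end cannot be assigned to either gene. ATP5PF shares its region with GABPA, which encodes the DNA-binding subunit of GABP and whose end lies 681 bp away, and NDUFB10 ends 83 bp from RPS2, a ribosomal protein gene.

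A gene was counted as having a peak when a peak overlapped by at least 1 bp the 1 kb on either side of either gene end. Gained means a peak in all treated lists of a comparison and in none of its DMSO lists, and lost means the reverse. Cover is the number of bases of these windows under peaks, called up or down when the treated and DMSO lists did not overlap. The lists held 138 to 28951 peaks and no read totals, so depth is unknown and a longer list can cover more genes. The shortest were replicate 1 of each Pol II group (1214 peaks at 2 h, 138 at 4 h and 710 in DMSO), and replicate 1 of Ser2P at 2 h held 6519 peaks, against 16170 in replicate 2. The labels do not state whether replicates came from different cultures, so the spread between them may be technical. In the check of the cells' identity, all 8 B-cell markers had peaks in both treated lists with ab239364 and in KARPAS422. The T-cell marker CD3E also had peaks, in 29 of the 33 lists, CD3D and CD3G in 4 and 3, and CD2 and CD8A in 0. Of 5 myeloid markers only CSF1R had a peak, in 1 list, and 4 genes silent in blood had none.

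More of the subunit genes than of the other genes had a peak in any of the 33 lists. In single lists their share lay above that of other genes for ab239364, KARPAS422, Ser5P and Ser2P. It lay below in the CST2316S lists of SUDHL5, and in Pol II the order differed between lists. Only 10 of 88 (11.4%) had no peak in any list, against 46.2% of the other genes, and 0 had a peak in all lists. The median subunit gene had a peak in 12 lists and the highest, ATP5PF, in 23. ATP5PF encodes coupling factor 6 of the stator stalk of ATP synthase (chr21:25724500-25735653). It had peaks in 9 of 12 CDK9 lists, in all 6 Ser5P and all 6 Ser2P lists and in 2 of 9 Pol II lists. NDUFA7, NDUFB1, NDUFB10, NDUFS7 and ATP5IF1 followed with 21 lists each, the first 4 being complex I genes.

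**Figure D2:**
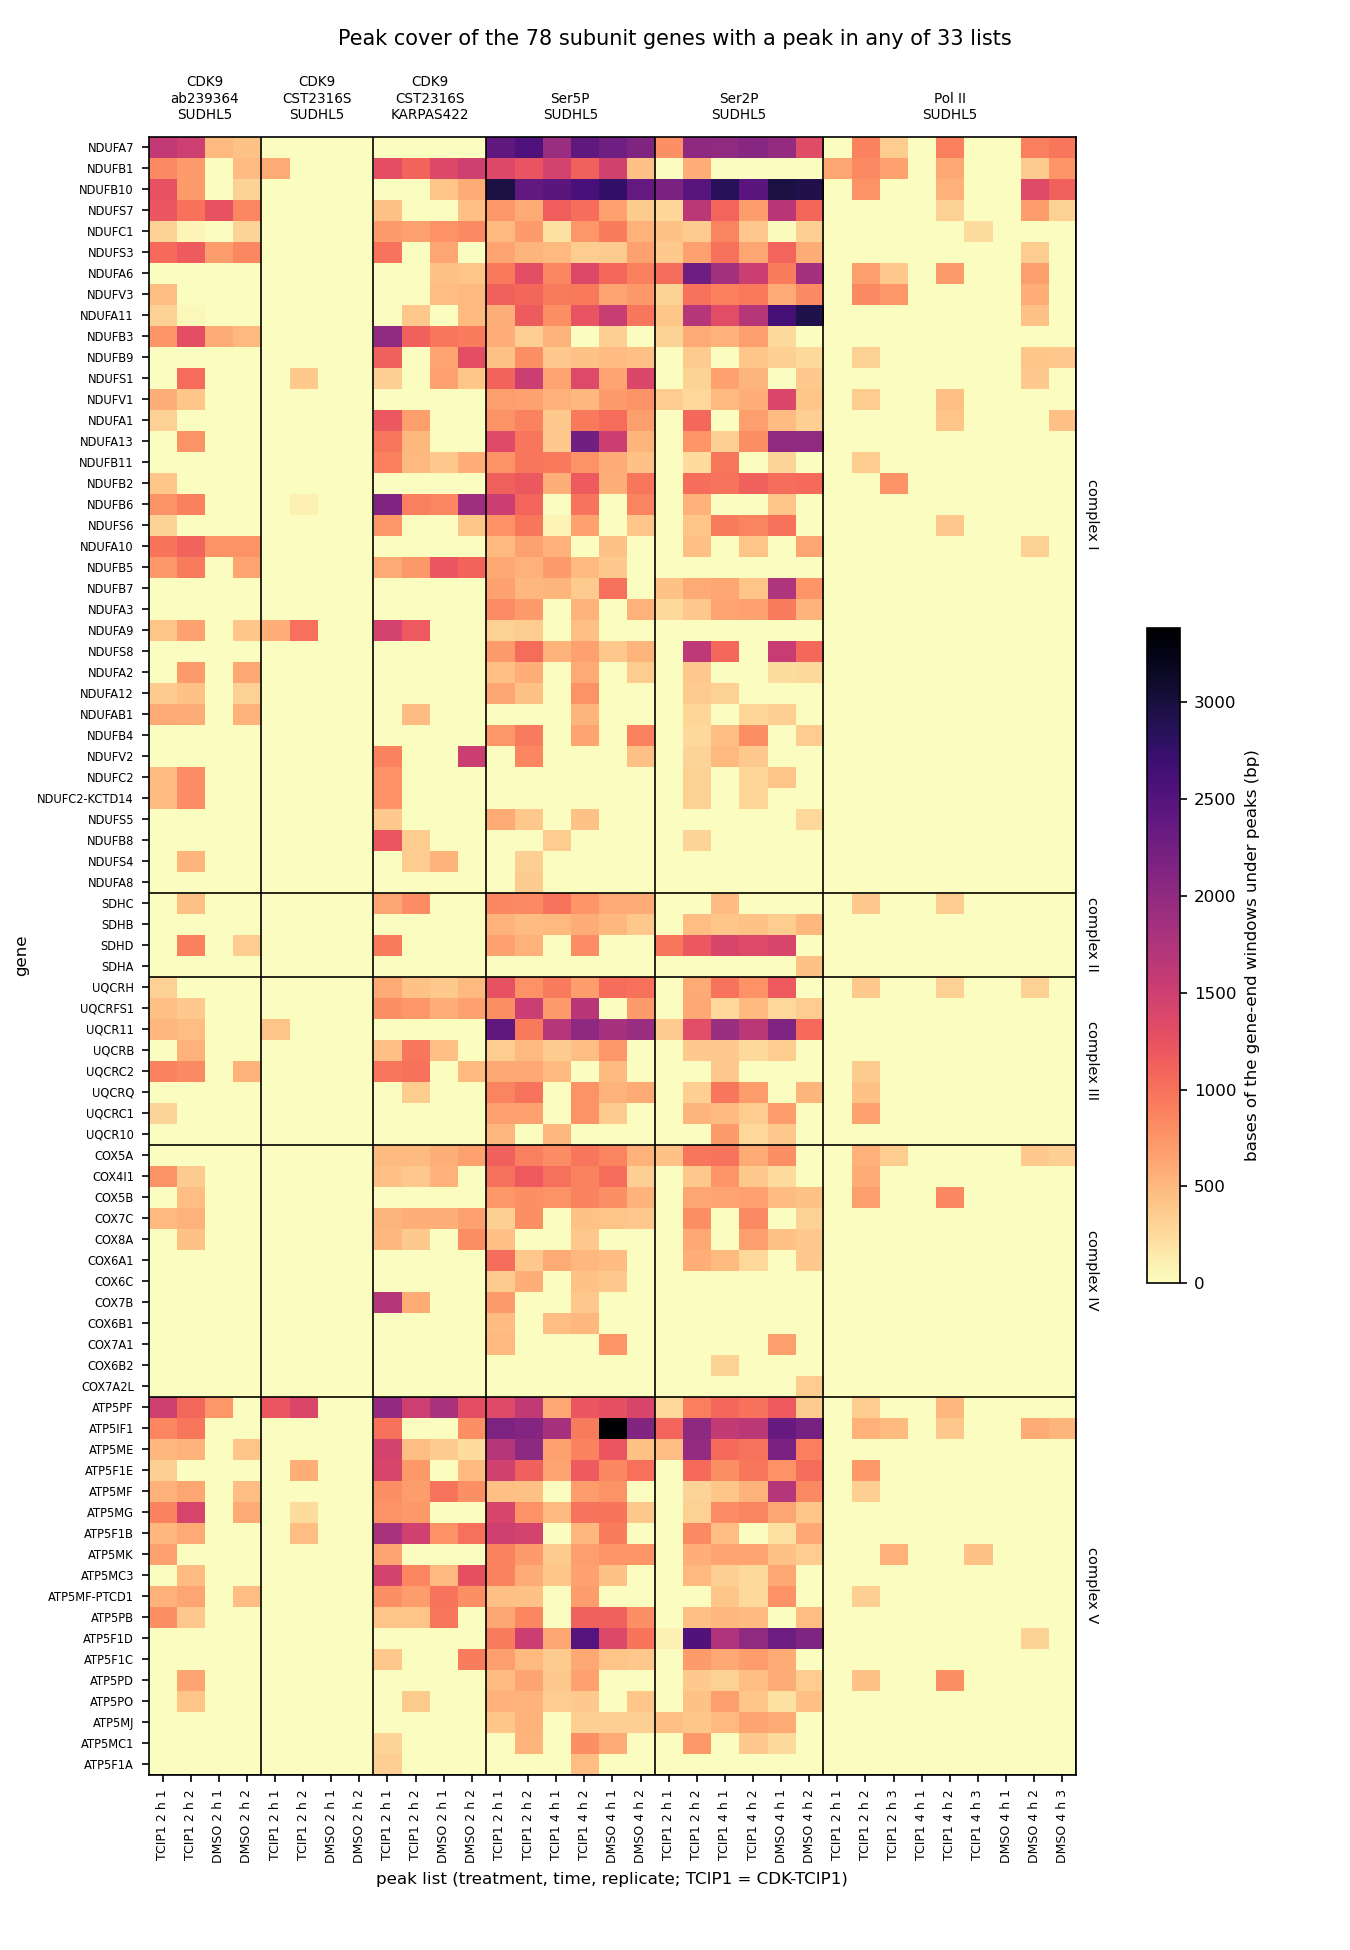
Bases of the gene-end windows under peaks (colour, bp) for each of the 78 subunit genes with a peak in any list (one per line, by complex and then by number of lists with a peak) in each of 33 peak lists (columns, with CDK-TCIP1 lists left of DMSO lists in each set). Cover is densest in the Ser5P and Ser2P columns and nearly empty for CST2316S in SUDHL5 and in the Pol II columns.

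Genes with no peak included NDUFA5 of complex I, UQCRHL of complex III, COX4I2, COX6A2, COX7A2, COX7B2 and COX8C of complex IV, and ATP5MC2 and ATP5MGL of complex V. Among them NDUFA5, COX7A2 and ATP5MC2 had peaks farther inside the gene or within 2 kb of it, in 5, 2 and 13 lists. The others are mostly tissue-restricted or duplicate copies. COX4I2, known from lung, was at 0 lists where its common partner COX4I1 had 16. COX6A2, the muscle and heart form, was at 0 where COX6A1 had 9. COX7B2 and COX8C, known from testis, were at 0 where COX7B had 4 and COX8A 10. The intronless copy UQCRHL was at 0 and UQCRH at 18, and ATP5MGL was at 0 and ATP5MG at 17. The pair of muscle COX7A1 and common COX7A2 ran the other way, with 3 lists for COX7A1 and 0 for COX7A2, and the testis form COX6B2 had 1 list where COX6B1 had only 3. The pair outside the rule, COXFA4L2 and COXFA4, had 19 and 20 lists.

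With ab239364 in SUDHL5, CDK9 peaks were found at more subunit genes after CDK-TCIP1 than in DMSO. They stood at 38 and 42 subunit genes in the treated lists, against 6 and 19 in the DMSO lists, that is 45.5% ± 3.21 against 14.2% ± 10.4 (SD, n = 2 each). The groups did not overlap. Among other genes the share was 24% ± 0.113 in treated lists and 8.67% ± 6.70 in DMSO lists. The treated lists were longer, with 9262 and 11148 peaks against 915 and 3508 in DMSO.

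Of the 88 genes, 12 (13.6%) gained CDK9 by ab239364, where 7.57% of all genes did, and 0 were lost, where 0.00998% of all genes were. Cover was up at 28 subunit genes (31.8%), where it was up at 16% of all genes, and down at 0, where 0.00998% of all genes were down. Shares of all genes, here and below, also count genes with no peak in either group. Among genes with a peak in any list of this comparison, cover was up or down at 28 of 50 subunit genes and at 3208 of 5976 genes in all, which are similar shares. The gained genes were ATP5F1B, ATP5IF1 and ATP5PB of complex V, COX4I1 and COX7C of complex IV, UQCRFS1 and UQCR11 of complex III, and NDUFV1, NDUFA11, NDUFB6, NDUFC2 and NDUFC2-KCTD14 of complex I. None was in complex II. Since a gained gene must meet every list, fewer lists give more: 22 and 20 without treated replicates 1 and 2, and 24 without DMSO replicate 2. With only the 915 strongest peaks by q of each list the difference was gone, with 6 and 4 subunit genes in treated lists, 6 and 9 in DMSO lists, 0 gained and 1 lost. These were 6.82% and 4.55% in treated lists and 6.82% and 10.2% in DMSO lists. Other genes also stood no higher after treatment, at 3.14% and 2.59% against 3.94% and 4.53% in DMSO, and below the subunit genes in each list. Here and below, gained, lost, up and down counts with changed settings or fewer lists are given for subunit genes only. They have no share of all genes beside them.

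ATP5F1B, the catalytic beta subunit of ATP synthase, had 509 and 600 bp of cover in treated lists and 0 and 0 bp in DMSO lists. The peaks' fold, the authors' ratio of signal over the list's own background, was 6.0 and 3.91, above 74.5% and 50.4% of the peaks of the same list. COX4I1, a nuclear subunit that regulates cytochrome oxidase, had 760 and 364 bp in treated lists and 0 and 0 bp in DMSO lists, with summits 140 bases after and 346 bases before the tabulated start site. UQCRFS1, the Rieske iron-sulfur protein of complex III, had 440 and 377 bp against 0 and 0 bp. These were modest peaks: those of COX4I1 had folds of 3.11 and 2.98, above 15.2% and 22.9% of the peaks of their lists.

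The strongest gained peaks belonged to NDUFC2, a membrane-arm subunit of complex I, with folds of 8.94 and 7.80 and cover of 465 and 812 bp in treated lists, against 0 and 0 bp in DMSO lists. Its readthrough partner NDUFC2-KCTD14 shares these peaks. NDUFV1, which holds the FMN and NADH site of complex I, lay at the weak end with folds of 2.59 and 3.32.

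Among subunit genes, the strongest ab239364 peaks were at genes that had CDK9 before treatment, and CST2316S did not find them in SUDHL5. All 5 subunit genes with CDK9 in both DMSO lists, NDUFS7, NDUFS3, NDUFA10, NDUFB3 and NDUFA7, kept it in both treated lists. NDUFS7, which holds the last iron-sulfur cluster before quinone, had folds of 33.6 and 34.3 in treated lists and 16.4 and 33.2 in DMSO lists, above at least 93.5% of the peaks of each list. Its summits lay from 31 to 41 bases before the start site, and its cover was 1207 and 1002 bp in treated lists and 1244 and 854 bp in DMSO lists, which overlap.

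NDUFS3, a core subunit beside it, had folds of 18.0 and 24.2 in treated lists and 15.7 and 27.1 in DMSO lists, with cover of 1055 and 1166 bp against 696 and 834 bp. NDUFA10, an accessory subunit, had folds of 24.7 and 16.2 in treated lists and 11.6 and 23.1 in DMSO lists. With CST2316S these 3 genes covered 0 bp in all 4 lists of SUDHL5, and in KARPAS422 NDUFA10 covered 0 bp in all 4. NDUFA7 covered 1592 and 1498 bp in treated ab239364 lists and 492 and 429 bp in DMSO lists, so that its cover was up without a gain.

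An exact two-sided permutation test of mean cover was run for every gene with a peak in a comparison, with Benjamini-Hochberg adjustment over those genes. With 2 against 2 lists the smallest p it can give is 0.333 and with 3 against 3 it is 0.1, so that no gene could pass 0.05 and calls rest on the lists not overlapping. With ab239364 the smallest adjusted p was 0.621 over 5976 genes.

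With CST2316S in SUDHL5, few subunit genes carried CDK9. Peaks stood at 4 and 7 of them in the treated lists (4.55% and 7.95%), against 0 and 0 in the DMSO lists. Other genes stood at 11.1% and 10.4% in treated lists and at 1.92% and 1.59% in DMSO lists, so that the subunit genes lay below the other genes in all 4 lists, opposite to ab239364. The treated lists were as long as with ab239364, with 10005 and 9761 peaks, against 1611 and 1264 in DMSO. Gained genes were NDUFA9 and ATP5PF, 2 of 88 (2.27%), where 6.31% of all genes were gained. Cover was up at the same 2, where it was up at 8.11% of all genes, and 0 were lost or down, where 0% of all genes were lost and 0.0150% down. Without treated replicate 1 the gained count was 7, and without treated replicate 2 it was 4.

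NDUFA9, an accessory subunit next to the quinone site of complex I (start site chr12, position 4649114), covered 573 and 1015 bp in the treated CST2316S lists and 0 and 0 bp in DMSO lists. Their summits lay 560 and 664 bases before its start site, where the neighbour AKAP3 has an end 63 bp from the gene. With ab239364 the summits were at the start, 61 and 33 bases after it, with cover of 422 and 656 bp in treated lists and 0 and 405 bp in DMSO lists. ATP5PF covered 1221 and 1395 bp in the treated CST2316S lists and 0 and 0 bp in DMSO lists, with summits 665 and 1051 bases before the tabulated start, on the GABPA side. With ab239364 it covered 1493 and 1061 bp in treated lists and 735 and 0 bp in DMSO lists.

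The comparison between antibodies was repeated among genes that had Ser5P in both DMSO lists, 36 subunit genes and 5412 other genes. There ab239364 found CDK9 at 61.1% and 55.6% of the subunit genes and at 64.4% and 64.4% of the other genes in treated lists, and at 11.1% and 22.2% against 11.4% and 37.6% in DMSO lists. The higher share of subunit genes seen over all genes with ab239364 did not appear among genes with Ser5P. With CST2316S in treated SUDHL5 the shares were 8.33% and 11.1% of the subunit genes and 32.4% and 30.7% of the other genes. In its DMSO lists of SUDHL5 they were 0% and 0% against 6.95% and 5.75%. The same antibody in treated KARPAS422 found 61.1% and 47.2% of the subunit genes and 64.9% and 52.2% of the other genes. The gap between subunit and other genes was wider in the 2 treated CST2316S lists of SUDHL5 than in any of the other 10 CDK9 lists. These shares have no test, since genes are not replicates.

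**Figure D3:**
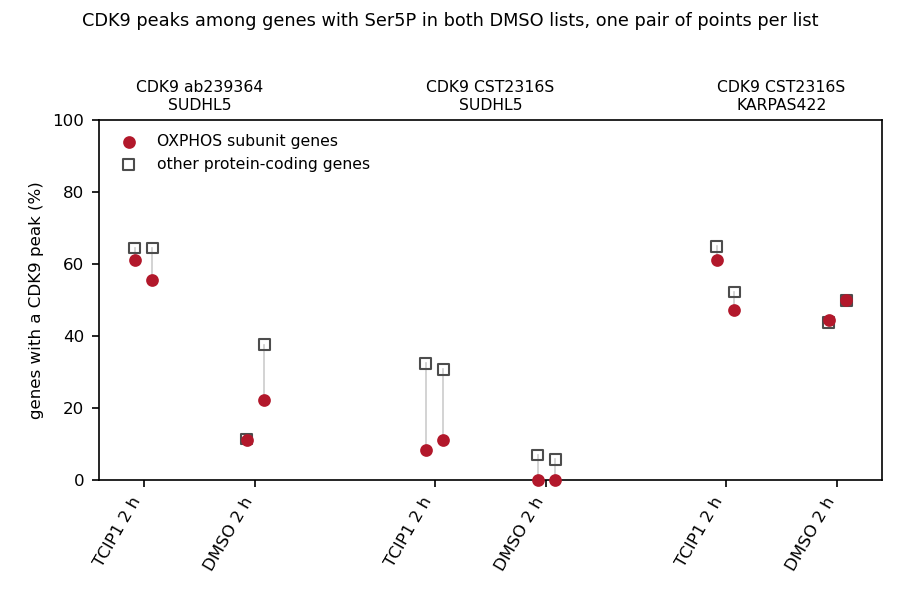
Percent of genes with a CDK9 peak, among 36 subunit genes (red circles) and 5412 other genes (open squares) that had Ser5P peaks in both DMSO lists of SUDHL5, one pair of points per list. The circles lie farthest below the squares in the treated CST2316S lists of SUDHL5, at 8.33% and 11.1% against 32.4% and 30.7%. In DMSO replicate 2 of ab239364 they stand at 22.2% against 37.6%.

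In KARPAS422, CDK9 was at subunit genes before treatment as well. Peaks stood at 44 and 34 subunit genes in treated lists and at 26 and 30 in DMSO lists, 44.3% ± 8.04 against 31.8% ± 3.21 (SD, n = 2 each). Other genes had 23.5% ± 4.41 in treated lists and 16.8% ± 1.92 in DMSO lists. The lists held 14554 and 10297 peaks after CDK-TCIP1 and 6689 and 7804 in DMSO. With the 6689 strongest peaks of each list the order turned round, to 14 and 19 subunit genes (15.9% and 21.6%) in treated lists and 26 and 28 (29.5% and 31.8%) in DMSO lists. Other genes then moved less, at 13.8% and 14% in treated lists and 15.4% and 16.6% in DMSO lists.

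Gained in KARPAS422 were 7 subunit genes (7.95%), where 4.38% of all genes were gained, namely NDUFA9, NDUFA1, NDUFA13 and NDUFB8 of complex I, SDHC, COX7B and ATP5MG. Lost were 3 (3.41%), where 0.629% of all genes were lost, namely NDUFB10, NDUFV3 and NDUFA6. Cover was up at 13, where it was up at 10.1% of all genes, and down at 8, where it was down at 2.39%. Without treated replicate 2 the gained count was 14 and cover was up at 28, without treated replicate 1 the lost count was 5, and cover was down at 15 and 13 without DMSO replicates 1 and 2. With only the strongest 6689 peaks 1 was gained and 8 were lost, and the share of all genes called at this setting is not given.

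NDUFA9 had the strongest KARPAS422 peak of any subunit gene, with 1430 and 1190 bp of cover and folds of 20.2 and 7.34 in treated KARPAS422 lists and 0 and 0 bp in DMSO lists. Its fold stood above 96.6% and 81.1% of the peaks of these lists. The summits lay 593 and 559 bases before the start site of NDUFA9, on the side of AKAP3, whose end is 63 bp from the gene. SDHC, a membrane anchor of succinate dehydrogenase, covered 626 and 813 bp in treated lists against 0 and 0 bp, and ATP5MG, the g subunit at the ATP synthase dimer, 755 and 722 bp against 0 and 0 bp.

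The 3 lost genes encode complex I accessory subunits: NDUFA6, which binds the acyl carrier protein, NDUFV3 of the NADH module and NDUFB10 of the membrane arm. NDUFA6 covered 0 and 0 bp in treated KARPAS422 lists and 431 and 411 bp in DMSO lists. NDUFV3 covered 0 and 0 bp in treated lists and 458 and 492 bp in DMSO lists. NDUFB10 covered 0 and 0 bp in treated lists and 410 and 586 bp in DMSO lists. These DMSO peaks were moderate, with folds from 3.05 (NDUFB10) to 4.22 (NDUFV3). In SUDHL5 with ab239364, NDUFB10 went the other way, with 1255 and 713 bp in treated lists and 0 and 311 bp in DMSO lists.

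NDUFS1, the largest core subunit of complex I, had the highest-ranked DMSO peaks in KARPAS422 and covered 338 and 0 bp in treated lists and 673 and 398 bp in DMSO lists, a fall in cover without a lost call. Its summits lay 807 to 855 bases before the start site. The neighbour EEF1B2 has an end 165 bp from NDUFS1, and which of these genes the peaks belong to was not tested. NDUFC1 and NDUFB11, accessory subunits of the membrane arm, ranked high in treated lists. NDUFC1 covered 702 and 661 bp in treated lists and 774 and 829 bp in DMSO lists, with summits 38 and 26 bases after the start site in treated lists and 610 and 562 bases before it in DMSO lists. NDUFB11 covered 895 and 491 bp in treated lists and 375 and 570 bp in DMSO lists, which overlap.

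**Figure D4:**
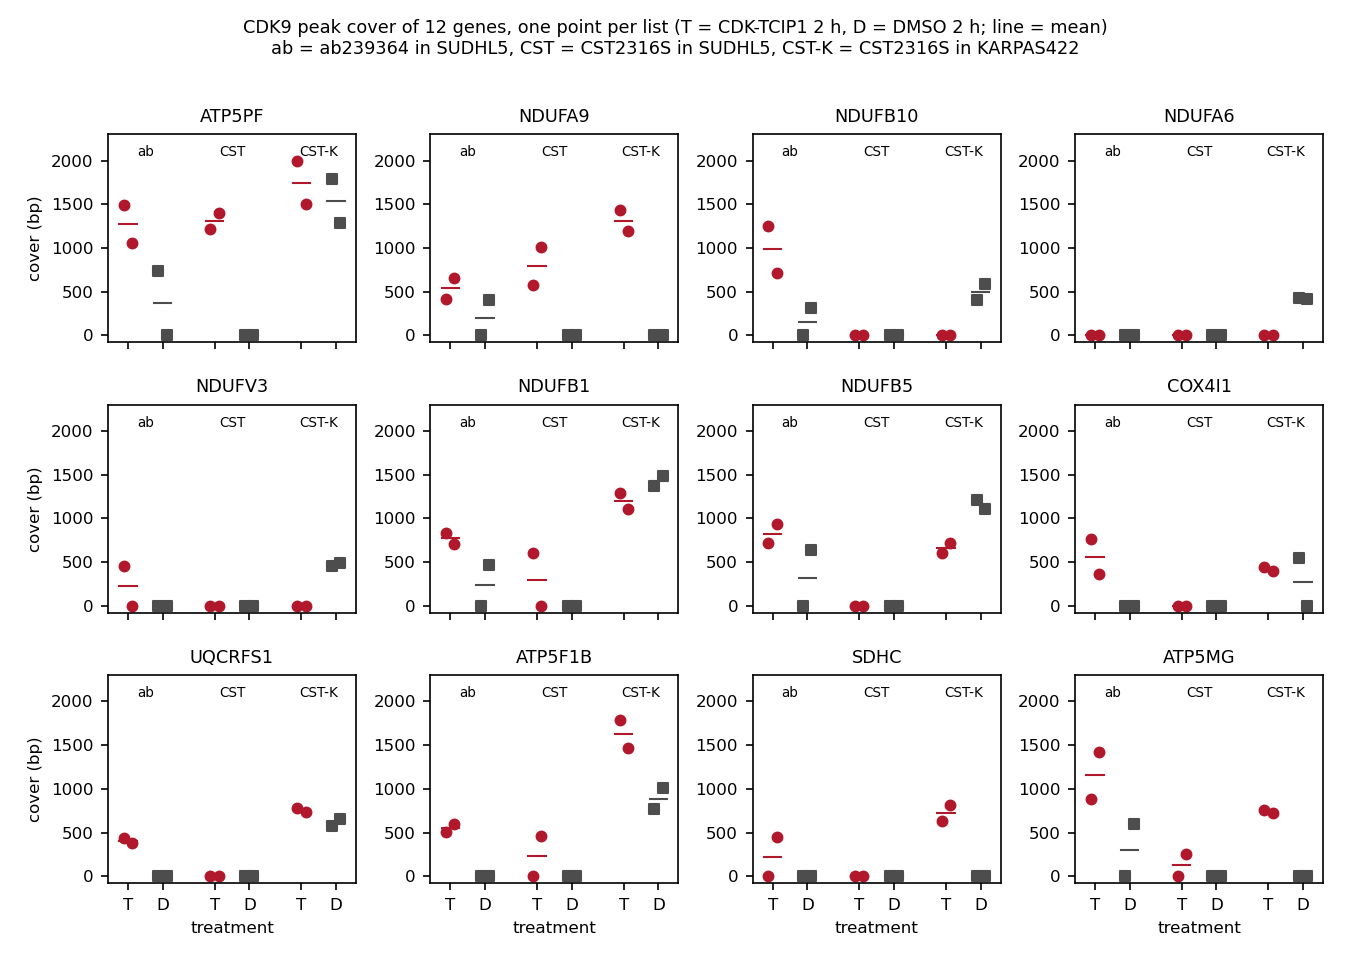
Cover of the gene-end windows by CDK9 peaks (bp) for 12 subunit genes, one point per list with the mean as a line, CDK-TCIP1 (T, red circles) left of DMSO (D, grey squares). ATP5PF and NDUFA9 have treated points above 0 in all 3 sets, and NDUFB10, NDUFA6 and NDUFV3 have KARPAS422 points above 0 only in DMSO.

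Peaks in both treated lists stood at 30 subunit genes with ab239364, at 2 with CST2316S in SUDHL5 and at 29 in KARPAS422. The ab239364 and KARPAS422 lists shared 17, which is 56.7% and 58.6% of them, and for other genes the shares were 62.4% and 62.7%. Both of the CST2316S genes of SUDHL5, NDUFA9 and ATP5PF, were among the 17. By complex, the 30 genes with ab239364 were 17 of complex I, 0 of complex II, 3 of complex III, 2 of complex IV and 8 of complex V. In KARPAS422 the 29 were 10, 1, 4, 5 and 9. Gains in any CDK9 set were called at 20 of the 88 subunit genes, where 14.2% of all genes had one, and gains in all 3 sets at 0, where 0.469% of all genes had them.

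Motif shares were also counted within the subunit genes. Of the 25 with a promoter window and CDK9 in both treated ab239364 lists, 10 (40.0%) held the YY1 motif, against 6 of the other 46 (13%). The NRF1 core ran the other way, at 3 of 25 (12.0%) against 11 of 46 (23.9%), and NF-Y likewise at 5 of 25 against 20 of 46 (43.5%). The STAT and BCL6 family letters were in 0 of 25 against 6 of 46, TATA in 16% against 6.52%, SP1 in 56% against 63% and the ETS core in 24% against 30.4%. Both genes in every treated CDK9 list, ATP5PF and NDUFA9, hold the YY1 motif printed above. These are counts over few genes, with no test.

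**Figure D5:**
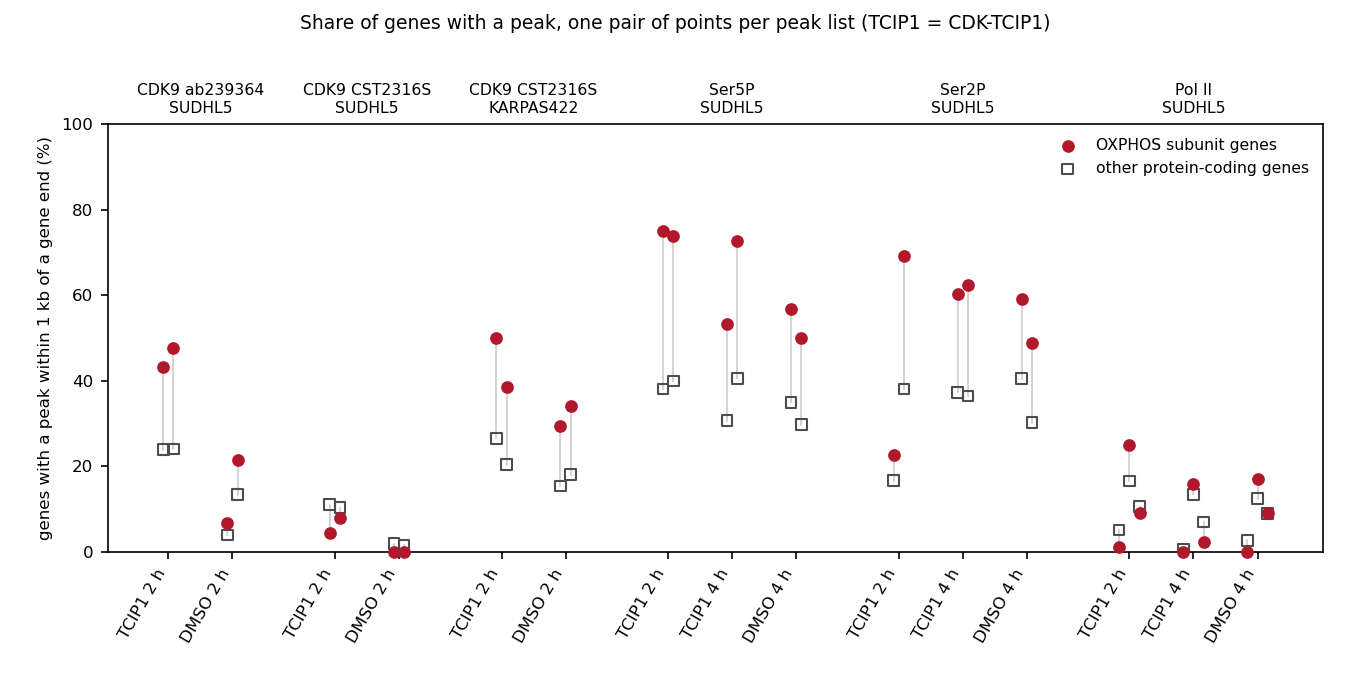
Percent of genes with a peak within 1 kb of a gene end, for 88 subunit genes (red circles) and the other protein-coding genes (open squares), one pair of points per list, with CDK-TCIP1 groups left of DMSO. Circles lie above squares in every CDK9 list with ab239364 or in KARPAS422 and in every Ser5P and Ser2P list, and below them in all CST2316S lists of SUDHL5. In Pol II they lie above in some lists and below in others. In Ser5P the 2 h lists reach 75.0% and 73.9%, against 56.8% and 50.0% in DMSO.

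Ser5P marked more subunit genes at 2 h of CDK-TCIP1 than in DMSO. Peaks stood at 66 and 65 of them at 2 h, 47 and 64 at 4 h, and 50 and 44 in DMSO. The shares were 74.4% ± 0.804, 63.1% ± 13.7 and 53.4% ± 4.82 (SD, n = 2 each), and those of other genes 39.0% ± 1.37, 35.7% ± 6.97 and 32.4% ± 3.67. The 2 h lists lay above both DMSO lists, and the 4 h lists overlapped them. List length did not follow this order, with 15099 and 13290 peaks at 2 h, 10816 and 14237 at 4 h and 17784 and 11782 in DMSO. With the 11782 strongest peaks of each list the subunit genes stood at 67.0% and 73.9% at 2 h against 44.3% and 50.0% in DMSO, and the other genes at 35.5% and 38.8% against 30.2% and 29.8%.

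At 2 h, 6 subunit genes (6.82%) gained Ser5P, where 2.73% of all genes did, and 0 were lost, where 0.260% of all genes were. Cover was up at 31 (35.2%), where it was up at 16.1% of all genes, and down at 1, NDUFV1, where it was down at 2.19%. Among genes with a peak in any list of this comparison the shares lay closer. There cover was up or down at 32 of 70 subunit genes and at 3663 of 8933 genes in all. The smallest adjusted p of the permutation test was 0.813. Fewer lists gave more gains: 10 without treated replicate 2, and 18 and 13 without DMSO replicates 1 and 2. Down calls were 5 and 7 when treated replicate 1 or 2 was left out, and 2 and 14 when DMSO replicate 1 or 2 was. With −log10 q of at least 5, 13 were gained, and with the strongest 11782 peaks 11.

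The 6 were NDUFA9, NDUFA12 and NDUFS5 of complex I, SDHD of complex II, and ATP5PD and ATP5MF-PTCD1 of complex V. NDUFA12, an accessory subunit of the peripheral arm, covered 627 and 431 bp at 2 h and 0 and 0 bp in DMSO, with summits 45 and 47 bases after the start site. SDHD, the other membrane anchor of complex II, covered 658 and 547 bp at 2 h and 0 and 0 bp in DMSO, but its summits lay 365 and 372 bases before the start site, on the side of TIMM8B, whose end is 117 bp away. NDUFA9 covered 322 and 350 bp at 2 h, 0 and 438 bp at 4 h and 0 and 0 bp in DMSO. It was called in CDK9 and in Ser5P, without a Ser2P or Pol II peak in any list.

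At 4 h, 2 subunit genes gained Ser5P (2.27%, where 1.40% of all genes did) and 0 were lost (where 0.419% were). Cover was up at 9, where it was up at 8.08% of all genes, and down at 7, where it was down at 4.24%. These counts moved with single lists: without treated replicate 1, the shorter list, 11 were gained and cover was up at 41, and without treated replicate 2, 4 were gained, 4 were lost and cover was down at 20. Without DMSO replicates 1 and 2 the gained count was 7 and 5, the lost count 1 and 1, the up count 20 and 14, and the down count 13 and 19.

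ATP5PD, the d subunit of the stator stalk, was gained at both times, covering 465 and 644 bp at 2 h, 372 and 657 bp at 4 h and 0 and 0 bp in DMSO. All 4 summits lay within 100 bases of the start site (46 and -61 at 2 h, 75 and 94 at 4 h). COX6B1, a cytochrome oxidase subunit on the intermembrane side, covered 464 and 0 bp at 2 h, 458 and 513 bp at 4 h and 0 and 0 bp in DMSO.

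The strongest Ser5P peak near a subunit gene was that of NDUFB10, with folds of 109 and 89.2 at 2 h, 66.4 and 9.06 at 4 h, and 77.5 and 74.3 in DMSO. Apart from 4 h replicate 2, these peaks stood above at least 99.9% of the peaks of their lists. In those 5 lists the summit lay from 2805 to 2819 bp past the far end of NDUFB10, and from 32 to 46 bp inside the outer end of RPS2. The signal was highest at the ribosomal protein gene and not at the subunit gene.

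COX5A, a cytochrome oxidase subunit on the matrix side, ranked among the strongest treated Ser5P peaks. It covered 1127 and 907 bp at 2 h, 812 and 958 bp at 4 h and 862 and 547 bp in DMSO, so that the 2 h lists lay above DMSO and the 4 h lists overlapped it. Its summits were 72 to 84 bases after the start site in the 4 treated lists and 199 and 208 bases before it in DMSO.

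Ser5P peaks were called at start ends more often than at far ends. For 66 of the 88 the table gives a strand and gene ends far enough apart to be told apart. At 2 h, Ser5P was at the start end of 50 and 52 of these and at the far end of 6 and 3, and in DMSO at the start end of 38 and 38 and the far end of 7 and 6. At 4 h the start end held 39 and 50 and the far end 3 and 7. Other genes had the same preference. At 2 h Ser5P was at the start end of 39.6% and 42.2% of them, against 75.8% and 78.8% of the subunit genes. It was at the far end of 7.82% and 6.75% of other genes, against 9.09% and 4.55% of the subunit genes. The median summit of the 2 h lists lay 24.5 and 26.5 bases after the start.

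Ser2P marked 20 and 61 subunit genes at 2 h, 53 and 55 at 4 h, and 52 and 43 in DMSO, or 46.0% ± 32.9, 61.4% ± 1.61 and 54.0% ± 7.23 (SD, n = 2 each). Other genes had 27.4% ± 15.1, 36.9% ± 0.546 and 35.4% ± 7.26. Among genes with Ser5P in both DMSO lists the higher share of subunit genes appeared only in 2 h replicate 2. There subunit genes had 44.4% and 97.2% at 2 h, 88.9% and 88.9% at 4 h, and 83.3% and 77.8% in DMSO. Other genes there had 53.3% and 94.1%, 92.7% and 92.2%, and 92.7% and 82.9%. The 2 h lists differed in length, with 6519 peaks in replicate 1 and 16170 in replicate 2. With the 6519 strongest peaks of each list they still stood apart, at 20 and 38 subunit genes, against 24 and 21 in DMSO. With the 13657 strongest peaks of each list the 4 h and DMSO groups stood apart, at 59.1% and 62.5% of subunit genes at 4 h against 42% and 39.8% in DMSO, and at 35.4% and 36.5% of other genes against 29.9% and 27.9%.

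At 2 h, 0 subunit genes gained Ser2P and 0 lost it, where 0.165% of all genes gained and 1.72% lost it. In 2 the cover was up (0.853% of all genes) and in 9 it was down (8.72% of all genes). Without the short treated replicate 1, 5 were gained and cover was up at 29, and without treated replicate 2, 17 were lost and cover was down at 31. Without DMSO replicates 1 and 2, 4 and 0 were gained, 3 and 3 were lost, cover was up at 5 and 3 and down at 20 and 27.

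At 4 h, 1 gained Ser2P and 1 lost it, where 1.58% and 1.03% of all genes did, and cover was up at 14 (9.33% of all genes) and down at 9 (6.42% of all genes). NDUFV2, which holds an iron-sulfur cluster of the NADH module, gained it, covering 501 and 371 bp at 4 h and 0 and 0 bp in DMSO. NDUFA2 lost it, with 0 and 0 bp at 4 h and 228 and 255 bp in DMSO, in peaks of low fold (3.62 and 3.14). Without 1 list in turn, from 2 to 14 genes were gained and 3 or 4 were lost, with 14 gained without DMSO replicate 1. Up calls were 23 and 25 without treated replicates 1 and 2 and 30 without DMSO replicate 1. Cover was down at 14 without treated replicate 2 and at 17 and 26 without DMSO replicates 1 and 2.

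Ser2P was at the far end of 4 and 10 of the 66 genes at 2 h, 10 and 5 at 4 h and 15 and 11 in DMSO, and at the start end of 15 and 49, 43 and 45, and 37 and 32. At NDUFA11, a membrane-arm subunit of complex I, cover was 405 and 1696 bp at 2 h and 1310 and 1696 bp at 4 h, against 2621 and 2928 bp in DMSO, without overlap at either time. The best DMSO peaks there had summits 11379 and 12037 bases past the start site. The share of other genes with a far-end Ser2P peak was 4.75% and 10.5% at 2 h, 10.7% and 8.01% at 4 h and 17.4% and 12.5% in DMSO, so that the other genes had the same order.

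Total Pol II was called at few subunit genes: 1, 22 and 8 at 2 h, 0, 14 and 2 at 4 h, and 0, 15 and 8 in DMSO. The shares were 11.7% ± 12.2, 6.06% ± 8.60 and 8.71% ± 8.53 (SD, n = 3 each), within each other's spread, and those of other genes were 10.8% ± 5.73, 7.01% ± 6.46 and 8.08% ± 4.97. The order differed between lists. At 2 h, subunit genes stood at 1.14% against 5.12% of other genes in replicate 1, and at 25% against 16.6% in replicate 2. Among genes with Ser5P in both DMSO lists, subunit genes lay below other genes in every Pol II list. At both times 0 subunit genes were gained, lost, or had cover up or down. Among all genes at 2 h, 0.170% were gained, 0.00499% lost, 0.424% up and 0.0200% down. At 4 h 0% were gained, 0.0299% lost, 0% up and 0.105% down. The short replicate 1 lists limit these calls: without them in both groups 1 was lost, 1 was up and 4 were down at 2 h, and 2 were lost and 5 down at 4 h.

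NDUFB1, a small membrane-arm subunit of complex I, had the most Pol II peaks, in 6 of 9 lists. It covered 631, 825 and 651 bp at 2 h, 0, 616 and 0 bp at 4 h and 0, 361 and 749 bp in DMSO. It was the only subunit gene with Pol II in all 3 lists at 2 h. Its summits lay from 313 to 344 bases before the start site in all 6 lists, on the side where its neighbour CPSF2 has an end 263 bp from the gene. NDUFA7, which lies 121 bp from another gene end (RPS28 and CD320 are within 1 kb), followed with 0, 875 and 351 bp at 2 h, 0, 889 and 0 bp at 4 h and 0, 901 and 957 bp in DMSO. NDUFB9, an accessory subunit of the membrane arm, covered 0, 323 and 0 bp at 2 h, 0 bp in all 3 lists at 4 h and 0, 399 and 390 bp in DMSO.

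Other genes of the pathway were counted from a fixed list. Of 41 assembly factors, 27 and 21 had CDK9 with ab239364 in treated lists and 6 and 18 in DMSO lists, and 35 and 39 had Ser5P at 2 h, 28 and 36 at 4 h and 29 and 28 in DMSO. CDK9 by ab239364 was gained at 2 of them, ACAD9 and NDUFAF3, where 7.57% of all genes gained it, and lost at 0, where 0.00998% lost it. In KARPAS422, 2 of the 41, NDUFAF6 and UQCC1, were gained, where 4.38% of all genes were, and 1, NDUFAF8, was lost, where 0.629% of all genes were. With CST2316S in SUDHL5 1 of the 41, COX18, was gained, where 6.31% of all genes were. Of 12 regulators of nuclear respiratory genes, ESRRA (an orphan nuclear receptor) gained CDK9 with both antibodies in SUDHL5, GABPA gained it with CST2316S and NRF1 gained it in KARPAS422, that is 1 of 12 with ab239364, 2 of 12 with CST2316S in SUDHL5 and 1 of 12 in KARPAS422, beside the same shares of all genes. GABPA, which shares a gene end region with ATP5PF, had a peak in the same 23 lists as ATP5PF, with 0 of 33 lists that differed. CYCS, cytochrome c, gained CDK9 with ab239364.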

How the data were processed

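ChIP-seq of CDK9 and RNA polymerase II was described by the labels for 43 samples; 33 have a peak list and the 10 inputs have none. The submitters' processing notes name the aligner Bowtie2, the peak caller MACS2, Trim Galore and FastQC, SAMtools and Picard, and deepTools and bedtools, with builds hg38 and dm6 and no versions. The deposited lists hold, per peak, the authors' fold enrichment, a ratio over the list's own background, not scaled between samples, with the authors' -log10 values of p and q, where q was at least 1.301 on this scale. Fold and q were used only to rank or filter peaks within a list. Of 286536 peaks, 25 on other contigs were left out. No read totals are given, so depth is unknown and no counting interval was computed; list length stands in its place.

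Peaks were overlapped with gene ends (GRCh38.p14 RefSeq table) in Python 3.11.15 with numpy 2.4.6, pandas 2.3.3 and matplotlib 3.10.9. The table has no strand; strand and start sites came from the RefSeq promoter table. Groups followed the labels, including the 2 h given there for the CDK9 DMSO samples, and gave 9 comparisons. The gained and lost calls were tested on simulated data. Replicate numbers were taken to pair the Pol II samples of the 2 h comparison, where deviations of same-numbered lists from their group means correlated at 0.337, 0.289 and 0.197 over 4330 genes; a block by number gave the same 0 calls there.

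Members, gene lists, markers and motifs were chosen with earlier results of these data known. Named genes were members gained or lost in any comparison, those with no peak (of which 1 is not reported here), isoform pairs, the 5 with the highest mean percentile of fold (0 where a list had no peak) among treated and among DMSO lists for CDK9 of each line, Ser5P and Pol II, and examples of shared ends. NDUFB5 and ATP5MJ were named after their values were seen. Alternatives were a stricter q, equal numbers of top peaks, a 2.5 kb window, summits, the whole gene and 2 kb on each side for Ser2P, leaving out each list and the replicate block. Added after the data were seen were leaving out readthrough genes, 1 kb around start sites, and leaving out replicate 1 of Pol II.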

Additional observations from a re-analysis of the deposited data

Results flagged for a closer look

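At 3 genes CDK9 cover was higher in both treated than in both DMSO lists with ab239364 in SUDHL5, and lower in both treated than in both DMSO lists with CST2316S in KARPAS422. These sets differ in line and in antibody, and the difference was not tested. The share of all genes with this pair of calls was not counted, so the 3 genes cannot be set against other genes. With CST2316S in SUDHL5, NDUFB5 and NDUFB10 covered 0 bp in all 4 lists, and NDUFB1 covered 600 and 0 bp in treated lists and 0 and 0 bp in DMSO lists, which overlap. NDUFB5 changed by 502.5 bp (mean of treated minus mean of DMSO lists) with ab239364 in SUDHL5 and by -503 bp with CST2316S in KARPAS422. NDUFB1 changed by 536 bp in SUDHL5 and -225.5 bp in KARPAS422. NDUFB10 changed by 828.5 bp in SUDHL5 and -498 bp in KARPAS422. All 3 encode membrane-arm subunits of complex I, and all 3 have an end of another gene within 1 kb. MRPL47 lies 148 bp from NDUFB5, CPSF2 263 bp from NDUFB1 and RPS2 83 bp from NDUFB10. The changes therefore cannot be assigned to either gene of each pair.

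At 2 genes the 2 h and 4 h polymerase samples moved in opposite directions from the DMSO lists they share, again without a test of the difference. The share of all genes that did so was not counted either. Ser2P cover of ATP5MG changed by -354.5 bp at 2 h and 330 bp at 4 h. Ser5P cover of ATP5MJ, a small membrane subunit of ATP synthase, changed by 126.5 bp at 2 h and -172 bp at 4 h. No group had enough samples to look for single outlying samples.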

How the results depend on the processing

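With -log10 q of at least 5, gained genes were 7 (CDK9 ab239364), 1 (CST2316S in SUDHL5), 7 (Ser2P 4 h) and 13 (Ser5P 2 h), and lost genes 1 (KARPAS422), 3 (Ser2P 2 h) and 0 (Ser2P 4 h). With equal numbers of top peaks, gained genes were 0 (ab239364), 0 (CST2316S in SUDHL5), 1 (KARPAS422), 4 (Ser2P 2 h), 9 (Ser2P 4 h), 11 (Ser5P 2 h) and 4 (Ser5P 4 h), and lost genes 1 (ab239364), 8 (KARPAS422), 2 (Ser2P 2 h) and 0 (Ser2P 4 h). The 2.5 kb window gave 1 lost for Ser2P 2 h, 0 gained for Ser2P 4 h and 4 gained for Ser5P 4 h. The whole gene with 2 kb gave 0 gained for Ser2P 4 h, and tabulated start sites gave 1 lost for Ser2P 2 h and 2 gained for Ser2P 4 h. Without the short Pol II replicate 1 lists, 1 was lost, 1 up and 4 down at 2 h, and 2 lost and 5 down at 4 h. The cause of these shifts was not tested. These counts, and those with lists left out, have no share of all genes beside them. They show how far the subunit counts moved, not how the subunit genes compare with other genes.

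Leaving out each list in turn gave these lowest and highest counts of gained, lost, up and down genes. CDK9 ab239364 had 13 to 24, 0 to 0, 29 to 40 and 0 to 1. CST2316S in SUDHL5 had 2 to 7, 0 to 0, 2 to 7 and 0 to 0. KARPAS422 had 10 to 14, 3 to 5, 17 to 28 and 9 to 15. Ser2P 2 h had 0 to 5, 0 to 17, 2 to 29 and 9 to 31, and Ser2P 4 h 2 to 14, 3 to 4, 20 to 30 and 11 to 26. Ser5P 2 h had 8 to 18, 0 to 0, 35 to 46 and 2 to 14, and Ser5P 4 h 4 to 11, 0 to 4, 14 to 41 and 8 to 20. Pol II 2 h had 0 to 0, 0 to 1, 0 to 1 and 0 to 4, and Pol II 4 h 0 to 0, 0 to 2, 0 to 0 and 0 to 5. Fewer lists make a call easier to meet.

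Outside Pol II at 2 h, same-numbered lists correlated from -0.0374 to 0.426 and were not taken as pairs. In Pol II at 4 h the correlations were 0.426, 0.307 and 0.0729 for replicates 1, 2 and 3, so pairing there is not settled. A replicate block moved Ser5P 2 h cover down to 2 and no other count by over 1.5 times. Peak calling depends on depth, which these lists do not give.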
